A study of Canis lupus familiaris with 18 samples.

Results

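Interferon-stimulated genes were examined in high grade oligodendroglioma (HGO), a malignant glioma of the canine forebrain, by RNASeq of tumor tissue from pet dogs. The genes were chosen from a list of 43 names that was matched to the symbols of the count file, and 29 of the names had a row among its 29993 genes. RIGI and DDX58 name the same gene, so the list covers 42 genes. Of the 29 listed genes, 28 passed the filter on low counts, which kept 16495 genes in all, and ISG20 did not. The names without a row were MX1, IFI44L, IFIH1, RIGI, CMPK2, USP18, HERC5, STAT2, IRF7, IRF9, XAF1, SAMD9, GBP5 and LGALS3BP, and they were not analysed here.

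Interferons are secreted proteins that warn neighbouring cells of infection or of nucleic acid in the wrong place. Type I and type III interferons act through surface receptors and JAK kinases to switch on a shared set of antiviral genes in nearly every cell type, while IFN-gamma from T and NK cells acts through its own receptor and favours antigen presentation. In the brain, microglia, astrocytes, endothelial cells and infiltrating macrophages can all carry such a response, so transcripts of these genes in bulk tumor are read as a trace of innate immune signaling.

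The 18 libraries were labelled by breed. The 11 French bulldogs form 1 group, and 4 boxers with 3 Boston terriers form the comparison group. All were FFPE (formalin-fixed, paraffin-embedded) biopsies of forebrain HGO from client-owned dogs, taken before trial treatment, and the groups were set by breed. The library names split the same way, since those of French bulldogs carry a suffix after the case number and those of comparison dogs do not. What the suffix stands for is not given, and its part in the results was not tested. By the study's description age, sex and tumor location also differed between the groups, and since they did not enter the fits their part in the results was not tested. Each library is 1 biopsy sample, and French bulldogs 2 and 8 may come from the same tumor. Values below are CPM, that is counts scaled to a library size common to all libraries by TMM normalization, and since gene lengths were not used, levels are compared between dogs and not between genes. Totals ran from 8212452 to 13169880 counts, and 3 counts, taken as the smallest level this depth could show, came to 0.223 to 0.351 CPM. That limit covers counting error only.

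Some libraries stood apart before any comparison was made. French bulldog 6 had 0 counts of OLIG2 and NKX2-2, transcription factors of the oligodendrocyte lineage, and the 9 lineage markers summed to 45.2 CPM in it against 1302 CPM in French bulldog 11 and 1483 to 7151 CPM in the other 16 libraries. Its 13 macrophage and microglia markers summed to 8309 CPM, compared with 409 CPM in French bulldog 11 and 80.7 to 503 CPM elsewhere. Astrocyte markers summed to 22.5 CPM in it and neuron markers to 18.4 CPM, against 515 to 5385 CPM and 454 to 2249 CPM in the 16. In French bulldog 11 they summed to 3261 and 383 CPM, so its neuron markers were below all of the 16. French bulldog 6 kept single markers, such as the growth factor receptor PDGFRA at 42.3 CPM, GJA1 of astrocytes at 13.1 CPM and MAP2 of neurons at 12.6 CPM. Its endothelial markers summed to 273 CPM, within the range of the 16 (168 to 969 CPM). The score, the counts and the genes with the smallest p-values are therefore given with and without it. French bulldogs 2 and 8 carry the same case number and differ in a letter that follows it, and the study lists the same age, sex and tumor location for both. Their log2 CPM correlated at r = 0.981 across genes, while no other pair of French bulldogs exceeded 0.941, and their counts differed by a chi-square per gene of 10.2, compared with 36.01 to 358 in the 54 other pairs. A chi-square above counting noise does not tell separate dogs from separate samples of 1 tumor. They are counted as labelled, as 2 of the 11 French bulldogs, and the main results are also given with their counts summed as 1 dog.

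A score was computed for each library by turning log2 CPM into z-scores for each of the 28 genes and averaging them. French bulldogs spanned the whole range of the score and the comparison group took only its middle. The score was 0.078 ± 1.01 (SD, n = 11) in French bulldogs, from -1.21 to 2.04 with a median of -0.052, and -0.123 ± 0.270 (SD, n = 7) in the comparison group, from -0.501 to 0.238 with a median of -0.130. The difference of 0.201 was smaller than the SD between French bulldogs, as was the 0.3305 obtained with French bulldogs 2 and 8 summed. French bulldog 11 had the highest score (2.04), followed by French bulldog 6 (1.76), and the next was a boxer at 0.238. The lowest were French bulldogs 2 (-1.21) and 8 (-1.04), the pair that shares a case number. With z-scores recomputed without French bulldog 6 the difference was 0.043, and without both French bulldogs 6 and 11, an omission decided on once the values were known, it was -0.299. With French bulldog 11 alone left out, also from the filter and normalization, the difference was -0.011.

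**Figure D1:**
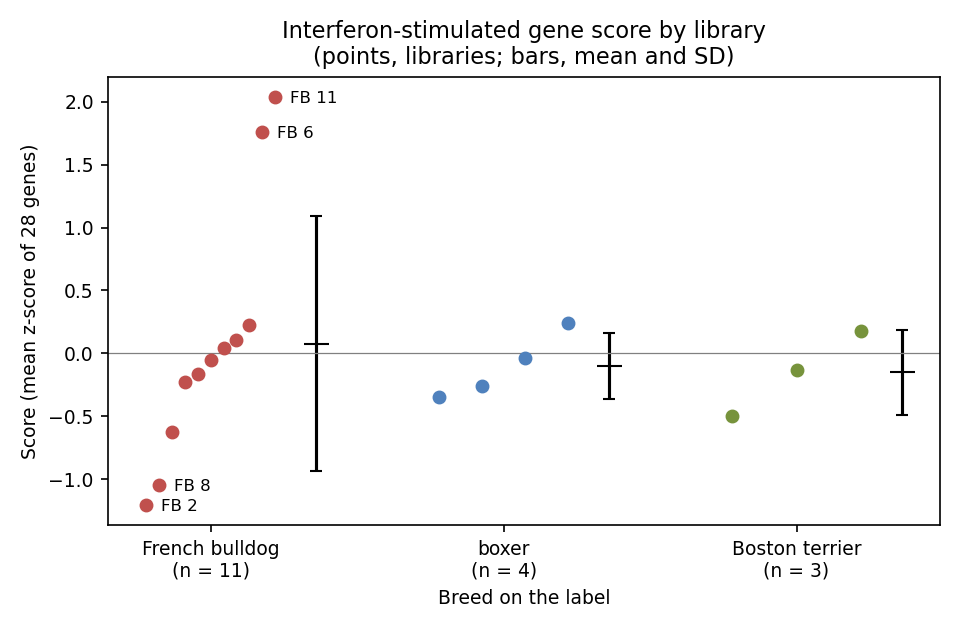
Interferon-stimulated gene score (vertical axis, mean z-score of 28 genes) for each library by labelled breed (points), with the mean and SD of each breed (bars). French bulldogs 6 and 11 lie at 1.76 and 2.04 and French bulldogs 2 and 8 at -1.21 and -1.04, outside the range of the 7 comparison libraries, -0.501 to 0.238.

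The comparison between French bulldogs and the other dogs was fitted for every gene with edgeR's quasi-likelihood test, to ask whether breed accounts for a difference in these genes. After adjustment 0 of the 28 genes passed at 0.05 (0.00606% of all genes tested did), and their adjusted p-values ran from 0.433 to 0.995. By the unadjusted p-value, also at 0.05, 5 of the 28 were higher in French bulldogs (7.02% of all genes) and 0 were lower (3.55% of all genes). The 5 were ZBP1, IRF1, SAMD9L, OASL and DDX60. Log2 fold changes were above 0 for 26 of the 28 genes (53.7% of all genes), with a median of 1.00 against 0.035 over all genes. No gene of the list separated the groups without overlap (0.0546% of all genes did). DESeq2's Wald test also gave 0 genes of the list with an adjusted p-value under 0.05, but its median was 0.59 and it turned the direction of IFIT1 (-0.51), IFIT3 (-0.79), OAS3 (-0.34), RSAD2 (-0.20), ISG15 (-0.14) and IFI6 (0.0067). DESeq2 was run with default settings, which can replace outlying counts, and their part in these changes was not tested. With limma-voom 0 genes of the list were higher at an unadjusted p-value under 0.05 (3.89% of all genes), with a median of 0.30.

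These counts rested on single libraries. Without French bulldog 6, 1 of 27 genes of the list was higher at an unadjusted p-value under 0.05 (6.92% of all genes), which was ZBP1, and the median log2 fold change was 0.52 against 0.047 over all genes. Log2 fold changes then ran from -0.55 for HERC6 to 2.17 for ZBP1, and OASL did not pass the filter. In the same fit SAMD9L was at 0.67, DDX60 at 1.49, IRF1 at 0.63, IFIT1 at 1.56, OAS2 at 1.01, MX2 at 0.82, IFIT5 at 0.37 and ISG15 at 1.94, with adjusted p-values from 0.490 to 0.660. Of these genes, DDX60, IRF1 and SAMD9L were among the 5 higher with all dogs. At an unadjusted p-value under 0.05, 3 genes were higher without French bulldog 11 (7.01% of all genes), and the median log2 fold change was 0.41. Without French bulldog 2 there were 8 (6.47% of all genes), and without French bulldog 8 also 8 (6.25% of all genes). Leaving out comparison dog 1 gave 3 (5.72% of all genes), comparison dog 2 gave 2 (6.32%) and comparison dog 6 gave 3 (5.09%). Without both French bulldogs 6 and 11 the edgeR test covered 27 of the genes, since OASL no longer passed the filter. Then 0 had an adjusted p-value under 0.05 (0.0307% of all genes), 0 were higher at an unadjusted p-value under 0.05 (6.78% of all genes) and 3 were lower (4.48% of all genes). Log2 fold changes were above 0 for 10 of the 27 (54.4% of all genes), and the median was -0.14 against 0.038 over all genes. As the pair left out was the highest in these genes, a downward shift was built into this fit. The same holds for the values of single genes given below without the pair. By library number the comparison dogs form the series 18 to 21 and 1 to 3. Against series 18 to 21 alone, 0 of the genes were higher at an unadjusted p-value under 0.05 (3.42% of all genes), with a median of 0.97, and against series 1 to 3 alone also 0 (2.28% of all genes), with a median of 1.02. French bulldogs 1 to 3 hold the numbers 1 to 3 as well, so that comparison series was numbered apart from them, and for those 3 comparison dogs series and breed cannot be told apart. The numbers 18 to 21 repeat none of the French bulldogs, and whether they were one series with them is not given.

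**Figure D2:**
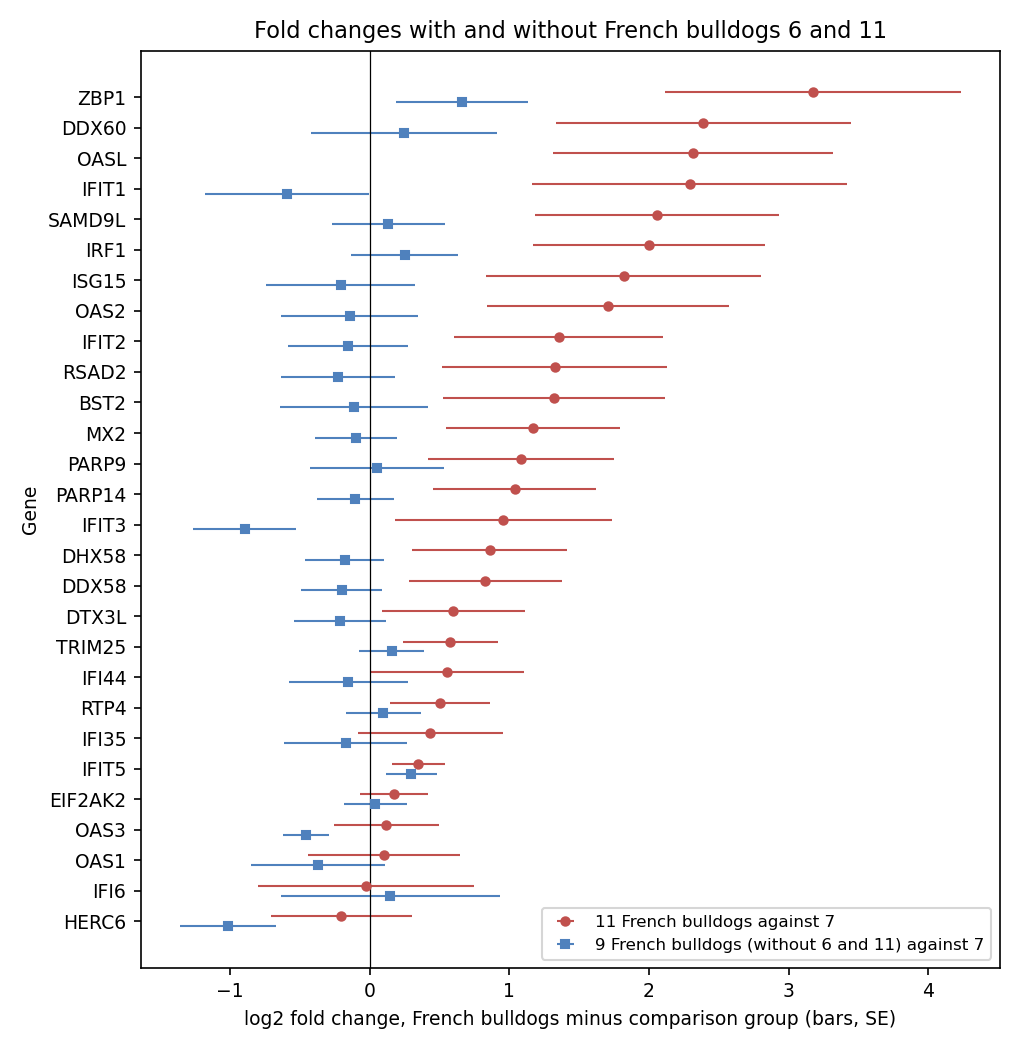
Log2 fold change of each gene, French bulldogs over comparison dogs (horizontal axis, bars are SE) with all 11 French bulldogs (circles) and with the 9 that remain without French bulldogs 6 and 11 (squares). The median of the circles is 1.00 and that of the squares is -0.14, and OASL has no square because it did not pass the filter.

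Sensors of foreign nucleic acid come first in the pathway, and 5 were listed. ZBP1 (ENSCAFG00000023783), which detects Z-form nucleic acid and can start a cell death program, ran from 0.305 to 55.4 CPM with a median of 1.64 in French bulldogs and from 0.200 to 1.51 CPM with a median of 1.05 in the comparison group. It had the smallest p-value of the list, with a log2 fold change of 3.17 (SE 1.06, unadjusted p = 0.00758, adjusted p = 0.433). The high end belonged to French bulldogs 6 and 11, at 55.4 and 29.6 CPM, although 6 of the 11 French bulldogs lay above every comparison dog. Without the pair the log2 fold change was 0.66 (SE 0.47, adjusted p = 0.614). DDX60 (ENSCAFG00000009003), a helicase that assists RNA sensing, ran from 0.932 to 171 CPM with a median of 5.66 in French bulldogs and from 0.902 to 8.41 CPM with a median of 6.52 in the comparison group. Its log2 fold change of 2.39 (SE 1.06, unadjusted p = 0.0360, adjusted p = 0.449) thus stood against a French bulldog median that was the lower of the medians. Without French bulldogs 6 and 11 it was 0.24 (SE 0.66, adjusted p = 0.928). The highest levels of DDX60 were 171 CPM in French bulldog 6, 93.8 CPM in French bulldog 11 and 30.3 CPM in French bulldog 1.

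DDX58 (ENSCAFG00000001807), which encodes the RNA sensor RIG-I, had 82.4 CPM in French bulldog 6 and 83.2 CPM in French bulldog 11, against 5.69 to 22.6 CPM in the other 16 libraries. DHX58 (ENSCAFG00000015720), a regulator of that sensor, had 26.1 and 47.2 CPM against 2.57 to 9.73 CPM. Their log2 fold changes between the groups were 0.83 (SE 0.55, adjusted p = 0.587) and 0.86 (SE 0.55, adjusted p = 0.581). EIF2AK2 (ENSCAFG00000006051), the kinase PKR that halts translation on double-stranded RNA, followed the others weakly. It ran from 31.0 to 108 CPM in French bulldogs and from 31.0 to 80.2 CPM in the boxers and Boston terriers, for a log2 fold change of 0.17 (SE 0.24, adjusted p = 0.838).

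IRF1 (ENSCAFG00000000851), a transcription factor that responds strongly to IFN-gamma, ran from 2.78 to 239 CPM with a median of 12.0 in French bulldogs and from 4.61 to 11.3 CPM with a median of 7.13 in the comparison group. French bulldog 6 held the top value, and the next were French bulldog 11 at 37.6 CPM and French bulldog 10 at 19.1 CPM. The groups overlapped at both ends, with 7 French bulldogs above every comparison dog and 3 below. The log2 fold change was 2.00 (SE 0.83, unadjusted p = 0.0267, adjusted p = 0.434), and it was 0.25 (SE 0.38, adjusted p = 0.852) without French bulldogs 6 and 11. In the RefSeq annotation of another dog assembly IRF1 overlaps RAD50, and whether counting used strand is not stated. ZBP1, DDX60, EIF2AK2, OAS2 and RSAD2 overlap loci without a gene name in that annotation, so the same limit holds for them.

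Genes of ISGylation, the attachment of the ubiquitin-like protein ISG15 to other proteins, differed in which dog was highest. ISG15 (ENSCAFG00000019348) had 327 counts in French bulldog 11, or 32.4 CPM. It had 13 counts in French bulldog 6 and 0 to 29 counts in the other 16 libraries, which spanned at most 2.40 CPM. It ran from 0.223 to 32.4 CPM with a median of 1.05 in French bulldogs and from 0 to 2.40 CPM with a median of 0.941 in the comparison group. The log2 fold change of 1.82 (SE 0.99, unadjusted p = 0.0816, adjusted p = 0.514) became -0.16 when French bulldog 11 was left out. HERC6 (ENSCAFG00000009781), a ligase related to the ISG15 ligase HERC5, ran from 1.45 to 44.2 CPM with a median of 8.11 in French bulldogs and from 10.5 to 20.7 CPM with a median of 15.7 in the comparison group. French bulldogs 6 and 11 were above every comparison dog and 7 French bulldogs were below. The log2 fold change was -0.20 (SE 0.51, adjusted p = 0.921), and it was -1.02 (SE 0.34, unadjusted p = 0.00859, adjusted p = 0.370) without that pair. TRIM25 (ENSCAFG00000017390), a ligase that activates RIG-I, ran from 13.2 to 80.2 CPM in French bulldogs and from 13.9 to 36.9 CPM in the comparison group. Its log2 fold change was 0.58 (SE 0.34, adjusted p = 0.545).

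The OAS enzymes make 2-5A, the short oligoadenylate that switches on RNase L, and all 4 of the family were listed. OAS2 (ENSCAFG00000023107) ran from 1.12 to 112 CPM with a median of 5.74 in French bulldogs and from 1.84 to 11.1 CPM with a median of 5.71 in the comparison group, so the medians were nearly equal beside a log2 fold change of 1.70 (SE 0.87, unadjusted p = 0.0641, adjusted p = 0.494). OASL (ENSCAFG00000010511), a family member without the enzyme activity, had 285 counts in French bulldog 6, 50 in French bulldog 11 and 1 to 16 in the other 16 libraries. French bulldogs thus ran from 0.102 to 29.7 CPM with a median of 0.848, and the comparison group from 0.282 to 1.00 CPM with a median of 0.801. The groups differed by a log2 fold change of 2.32 (SE 1.00, unadjusted p = 0.0325, adjusted p = 0.445). OAS1 (ENSCAFG00000023556) and OAS3 (ENSCAFG00000008929) were high in French bulldog 11 alone. OAS1 had 56.1 CPM there, 15.6 CPM in French bulldog 6 and 1.34 to 22.1 CPM elsewhere, and OAS3 had 132, 40.7 and 15.6 to 44.0 CPM. Their log2 fold changes were 0.10 (SE 0.54, adjusted p = 0.970) and 0.12 (SE 0.37, adjusted p = 0.941). Without French bulldogs 6 and 11, OAS3 was at -0.46 (SE 0.17, unadjusted p = 0.0129, adjusted p = 0.384). OAS1, OAS3 and OAS2 lie side by side in the RefSeq annotation, and reads that match several members could have been split or lost in counting.

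The IFIT proteins bind foreign RNA and block its translation. IFIT1 (ENSCAFG00000009617) had 712 counts in French bulldog 6 and 669 in French bulldog 11, or 74.1 and 66.3 CPM, against 1 to 64 counts in the other 16 libraries. It ran from 0.112 to 74.1 CPM in French bulldogs with a median of 2.25 CPM, and its median was 3.03 CPM in the comparison group, where the range was 0.251 to 5.30 CPM. The log2 fold change was 2.29 (SE 1.13, unadjusted p = 0.0563, adjusted p = 0.481) with all dogs and -0.59 (SE 0.59, adjusted p = 0.740) without the pair. IFIT2 (ENSCAFG00000009612) and IFIT3 (ENSCAFG00000031614) followed IFIT1. IFIT2 reached 21.5 and 14.9 CPM in French bulldogs 6 and 11, compared with at most 3.42 CPM elsewhere, and IFIT3 reached 39.2 and 48.1 CPM, compared with at most 8.12 CPM. Their log2 fold changes were 1.35 (SE 0.75, adjusted p = 0.519) and 0.96 (SE 0.78, adjusted p = 0.667). Without the pair IFIT3 was at -0.90 (SE 0.37, unadjusted p = 0.0260, adjusted p = 0.411). IFIT5 (ENSCAFG00000007151) was the even one of the family, from 20.3 to 51.1 CPM with a median of 35.7 in French bulldogs and from 21.0 to 35.9 CPM with a median of 27.4 in the comparison group. Its log2 fold change was 0.35 (SE 0.19, unadjusted p = 0.0792, adjusted p = 0.510) and stayed at 0.30 (SE 0.18, adjusted p = 0.546) without the pair. IFIT genes are close relatives, so their counts may share reads.

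Effectors that act on viral replication were led by the GTPase MX2 (ENSCAFG00000010167) and by RSAD2 (ENSCAFG00000003293), which encodes viperin. MX2 ran from 16.2 to 437 CPM with a median of 53.5 in French bulldogs and from 32.1 to 75.9 CPM with a median of 42.3 in the comparison group. This gave a log2 fold change of 1.17 (SE 0.62, unadjusted p = 0.0761, adjusted p = 0.506). Only French bulldogs 11 (437 CPM) and 6 (371 CPM) exceeded every comparison dog, while French bulldogs 2 and 8 were below all of them. RSAD2 had 913 counts in French bulldog 11, or 90.5 CPM, 42 counts in French bulldog 6, or 4.37 CPM, and 1.10 to 9.19 CPM in the other 16 libraries. Its log2 fold change was 1.32 (SE 0.81, adjusted p = 0.559), and -0.22 without French bulldog 11. ISG20 (ENSCAFG00000011525), an exonuclease, had 24 counts in French bulldog 6, 11 in French bulldog 11 and 0 to 7 elsewhere, and was too low to be tested.

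Of the 3 genes named IFI, IFI44 (ENSCAFG00000020342) reached 227 CPM in French bulldog 11 and 127 CPM in French bulldog 6, with 5.09 to 70.04 CPM elsewhere. IFI35 (ENSCAFG00000014624) had 13.98 and 15.5 CPM in these dogs and 0.781 to 7.02 CPM elsewhere. Their log2 fold changes were 0.56 (SE 0.55, adjusted p = 0.741) and 0.43 (SE 0.52, adjusted p = 0.794). IFI6 (ENSCAFG00000012046), a small membrane protein that limits cell death, was the exception of the list. It had 19 counts in French bulldog 11, 2 in French bulldog 6 and its highest count, 92, in French bulldog 9, and its log2 fold change was -0.028 (SE 0.77, adjusted p = 0.995).

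PARP9 (ENSCAFG00000011940) and DTX3L (ENSCAFG00000011948), which form an ADP-ribosyltransferase and ubiquitin ligase complex, had 36.1 and 66.8 CPM in French bulldog 6 and 29.1 and 40.2 CPM in French bulldog 11. The other 16 libraries held 0.509 to 10.4 CPM of PARP9 and 3.12 to 21.4 CPM of DTX3L. PARP14 (ENSCAFG00000011970), a related transferase, had 163 and 108 CPM in the same dogs, against 7.48 to 27.8 CPM. The log2 fold changes were 1.08 (SE 0.66, adjusted p = 0.561) for PARP9, 0.60 (SE 0.51, adjusted p = 0.691) for DTX3L and 1.04 (SE 0.58, adjusted p = 0.525) for PARP14. PARP9 and DTX3L overlap in the RefSeq annotation, so their correlation of r = 0.95 over 18 libraries may include shared reads.

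Among restriction factors, BST2 (ENSCAFG00000031353), or tetherin, which holds budding virus at the cell surface, ran from 0.892 to 159.7 CPM in French bulldogs with a median of 14.9 and from 5.27 to 22.1 CPM in the comparison group with a median of 14.6. The log2 fold change was 1.32 (SE 0.79, adjusted p = 0.553). SAMD9L (ENSCAFG00000002007), an antiviral and antiproliferative protein, ran from 8.37 to 722 CPM with a median of 32.3 in French bulldogs and from 9.28 to 39.4 CPM with a median of 20.9 in the comparison group. The top value belonged to French bulldog 6, and French bulldog 11 followed at 138 CPM. SAMD9L had a log2 fold change of 2.06 (SE 0.87, unadjusted p = 0.0299, adjusted p = 0.436) and 0.13 (SE 0.40, adjusted p = 0.936) without the pair. RTP4 (ENSCAFG00000013889), a chaperone of receptor transport induced by interferon, had 23.0 CPM in French bulldog 11, 14.7 CPM in French bulldog 6 and 2.00 to 8.86 CPM elsewhere, with a log2 fold change of 0.50 (SE 0.36, adjusted p = 0.608).

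**Figure D3:**
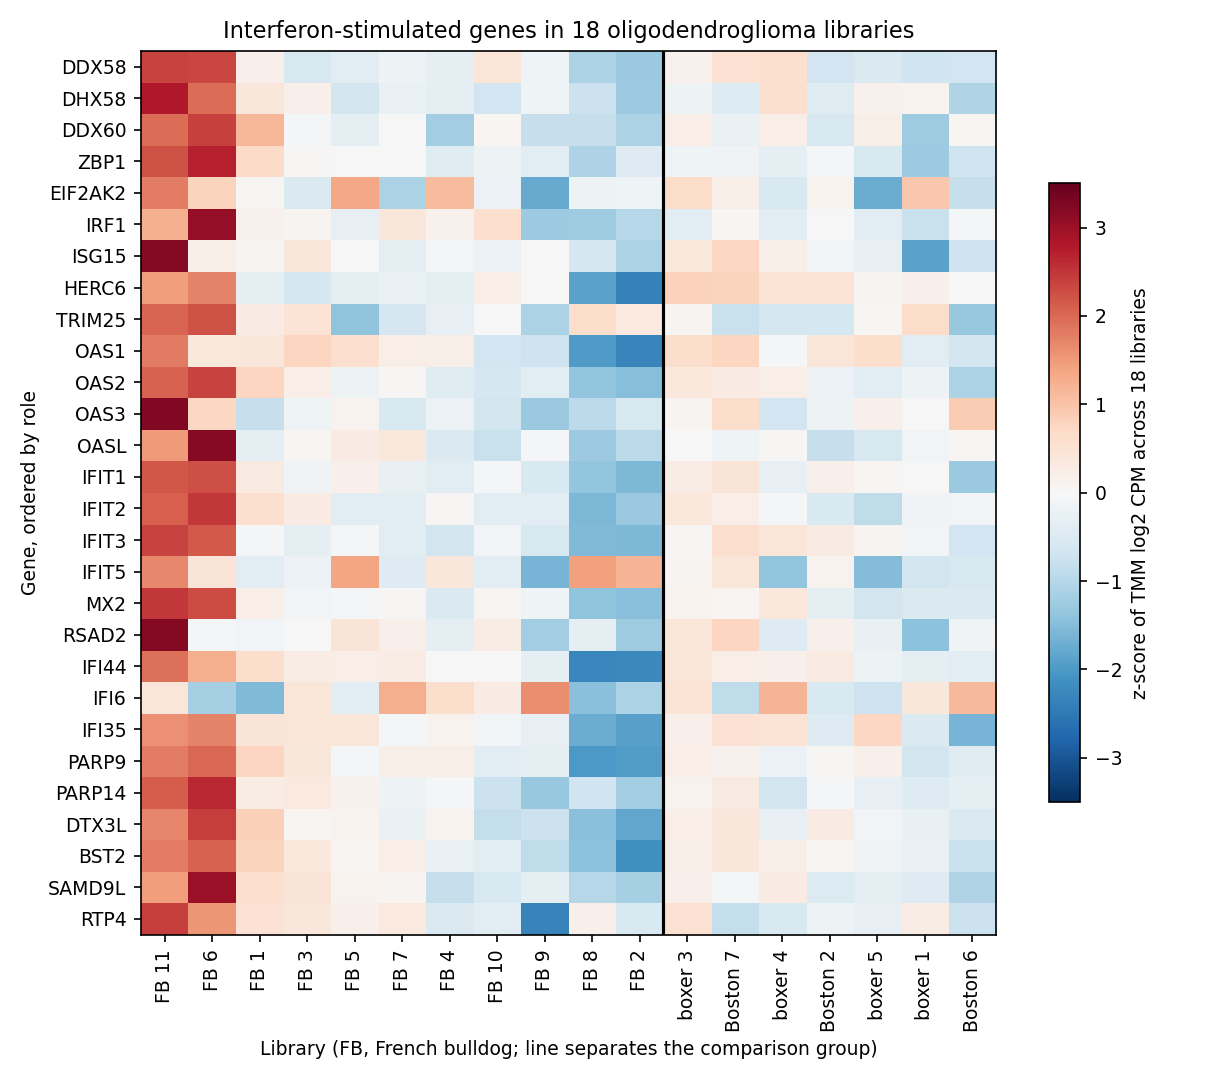
z-score of log2 CPM for the 28 genes (rows, ordered by role) in the 18 libraries (columns, ordered by score within French bulldogs, FB, and within the comparison group). French bulldog 11 is above the other 16 libraries in 27 genes and French bulldog 6 in 21, and French bulldogs 2 and 8 are the lowest pair in 14.

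Both high libraries were then set against the 16 others, gene by gene. The pair was picked by the score of these same genes, so the counts below describe it and are not a test. French bulldog 11 was above all 16 in 27 of the 28 genes, IFI6 being the exception, while it was above all 16 in 12.1% of all genes tested. French bulldog 6 was above all 16 in 21 of the 28, against 22% of all genes. A level at least 4 times the median of the 16 was reached by 20 genes in French bulldog 11 (3.43% of all genes) and by 17 in French bulldog 6 (7.17% of all genes). The median ratio to the 16 was 6.26 in French bulldog 11 and 6.74 in French bulldog 6, while over all genes it was 0.962 and 0.858. As all samples are bulk tissue, more cells of a type that carries these transcripts and more transcript in each cell cannot be told apart.

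The same genes were not high to the same degree in both dogs. ISG15 was 23.9 times as high in French bulldog 11 as in French bulldog 6, RSAD2 20.7 times, IFI6 9.05 times on 19 against 2 counts, OAS1 3.59 times and OAS3 3.25 times. In the other direction, IRF1 was 6.35 times as high in French bulldog 6, OASL 5.99 times and SAMD9L 5.24 times. DDX58, IFIT1, IFIT3, IFI35, TRIM25 and MX2 lay within a ratio of 0.895 to 1.23 (French bulldog 11 over French bulldog 6). The 7 genes in which French bulldog 6 did not exceed all other 16 libraries were EIF2AK2, ISG15, OAS1, OAS3, IFIT5, RSAD2 and IFI6. Each profile comes from 1 library, so these differences have no replicate check.

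**Figure D4:**
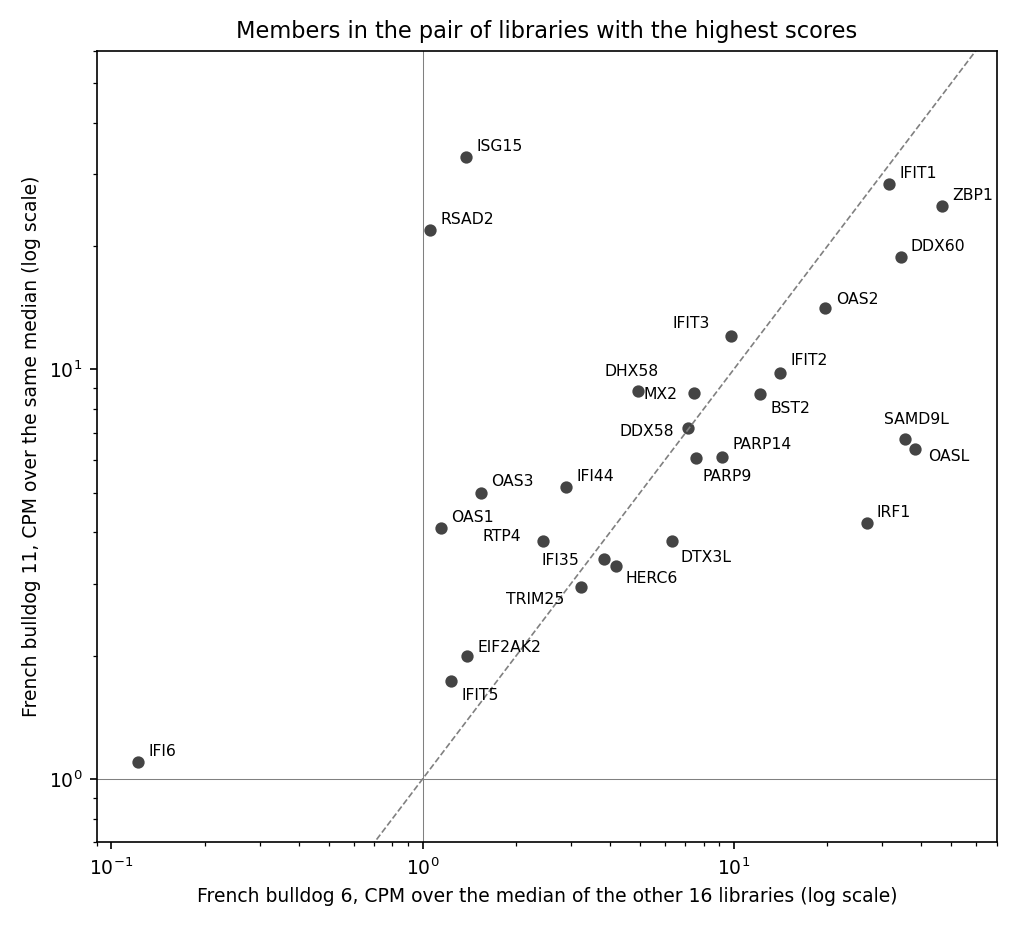
Level of each gene in French bulldog 6 (horizontal axis) and French bulldog 11 (vertical axis), as CPM over the median of the other 16 libraries, both on log scales, with the dashed line marking equal ratios. ISG15 and RSAD2 lie far above the line, with ratios of 33.0 and 21.9 in French bulldog 11 and 1.38 and 1.06 in French bulldog 6, while IRF1, OASL and SAMD9L lie below it.

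French bulldogs 2 and 8 formed the low end. Their place there comes from the score of these same genes, so the counts below describe it and are not a test. They may come from the same tumor, so being low together is not independent evidence. They were the lowest pair of the 18 libraries in 14 of the 28 genes, while this held for 8.87% of all genes tested. Their median ratios to the 16 libraries, which include them, were 0.295 and 0.329, and over all genes 0.995 and 0.997. IFI44 had 5.13 CPM in French bulldog 2 and 5.09 CPM in French bulldog 8, against a median of 44.0 CPM, and BST2 had 0.892 and 2.34 CPM against 13.2 CPM. OAS1 had 1.34 and 1.83 CPM against 13.7 CPM. IFIT1 had 1 and 2 counts. By contrast, TRIM25 and IFIT5 lay above the median in both dogs, at 31.6 and 36.5 CPM and at 44.5 and 47.5 CPM, and EIF2AK2 lay close to it at 54.7 and 53.8 CPM. Some cell type markers in these libraries lay outside the range of the comparison group, and their part in the low values was not tested. By summed CPM, lists of neurons, T and NK cells, B and plasma cells and neutrophils lay inside it. By score, T and NK cells in French bulldog 2 (0.294) lay above the comparison maximum of 0.214. Neutrophils in French bulldog 8 (-0.390) lay below the comparison minimum of -0.235. Endothelial markers summed to 168 and 171 CPM in French bulldogs 2 and 8, compared with 345 to 528 CPM in the comparison group. The 9 oligodendrocyte lineage markers summed to 7047 and 7151 CPM in French bulldogs 2 and 8, compared with 2102 to 4140 CPM in the comparison group, and the 5 astrocyte markers to 515 and 618 CPM, compared with 969 to 3580 CPM. Macrophage and microglia markers summed to 100.8 and 119 CPM, compared with 124 to 255 CPM. The 8 proliferation genes summed to 989 and 1099 CPM, compared with 95.9 to 400.0 CPM, but French bulldog 6, at the other end of the score, had 1070 CPM too. With their counts summed as 1 dog, 8 of the 28 genes were higher in French bulldogs at an unadjusted p-value under 0.05 (6.45% of all genes), with a median log2 fold change of 1.11, and none passed after adjustment.

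Within the list, genes varied together across dogs. The median Pearson correlation over the 378 pairs of genes was 0.69 across 18 libraries, 0.71 without French bulldog 6, 0.49 without French bulldogs 6 and 11 and 0.30 over the 14 libraries that remain without French bulldogs 2 and 8 too. Pairs among 1031 genes of the whole table had medians between -0.0043 and 0.00067 over the same libraries. These correlations share the libraries and their depth and are given as a description. Over the 16 libraries without French bulldogs 6 and 11, BST2 (r = 0.97), IFI44 (0.93), OAS1 (0.92), OAS2 (0.92), PARP9 (0.91) and DTX3L (0.91) followed the mean of the other genes most closely. TRIM25 (-0.24), IFIT5 (-0.30), IFI6 (0.08), EIF2AK2 (0.17) and OAS3 (0.25) followed it least.

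Genes upstream of the response were read from lists of ligands, receptors, kinases and sensors, of which 4 of 7 ligands and 2 of 6 receptors had a row. The other ligands and receptors were not analysed here. IFNB1 and IFNA7 had 0 counts in all 18 libraries, which allows a level of up to 0.223 to 0.351 CPM in each, and IFNK had at most 2 counts. IFNG had 27 counts in French bulldog 6 and 0 in French bulldog 11, was at 0 in 12 libraries and reached 19 counts in the comparison group. Of the receptors, IFNGR1 had 263 CPM in French bulldog 6, 73.1 CPM in French bulldog 11 and 32.9 to 75.9 CPM elsewhere, and IFNLR1 had 4.17, 2.08 and 0.335 to 3.46 CPM. Their log2 fold changes between the groups were 0.46 (adjusted p = 0.651) and 0.17 (adjusted p = 0.933).

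No gene of these lists passed after adjustment. Of 7 JAK-STAT genes and inhibitors tested, 1 was higher in French bulldogs at an unadjusted p-value under 0.05 (7.02% of all genes), the kinase JAK2, with a log2 fold change of 0.54 (SE 0.26, unadjusted p = 0.0484, adjusted p = 0.470) and 361 CPM in French bulldog 6. It was at 0.28 (unadjusted p = 0.119, adjusted p = 0.542) without French bulldogs 6 and 11, when 0 genes of that list were higher (6.78% of all genes). Of 9 other genes of nucleic acid sensing, 0 were higher and 2 lower (3.55% of all genes). TLR9, a receptor for unmethylated DNA, had a log2 fold change of -1.43 (SE 0.38, unadjusted p = 0.00147, adjusted p = 0.433), with a level of 0.204 to 1.45 CPM in French bulldogs and 0.564 to 3.09 CPM in the comparison group. IRF3, the factor that starts interferon transcription, had 10.3 to 35.4 CPM in French bulldogs and 15.8 to 56.2 CPM in the other dogs, with a log2 fold change of -0.65 (SE 0.25, unadjusted p = 0.0190, adjusted p = 0.433). Without French bulldogs 6 and 11 they were at -1.47 and -0.80, and IRF5 passed the unadjusted threshold as well at -0.68 (unadjusted p = 0.0313, adjusted p = 0.420), making 3 of 9 lower (4.48% of all genes). With all dogs the direction of IRF5 was the opposite, at 1.11 (unadjusted p = 0.174, adjusted p = 0.609).

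Targets typical of IFN-gamma were highest in French bulldog 6 by their summed level. Of 12 tested, 6 were higher in French bulldogs at an unadjusted p-value under 0.05 (7.02% of all genes) and 0 lower (3.55% of all genes): CIITA, TAP1, TAPBP, PSMB8, WARS1 and ICAM1, most of them genes of antigen processing, with log2 fold changes of 0.67 to 2.55 and adjusted p-values from 0.433 to 0.470. Without French bulldogs 6 and 11, TAP1 (0.35, adjusted p = 0.436) and WARS1 (0.36, adjusted p = 0.407) were left, 2 of the 11 that passed the filter (6.78% of all genes). CXCL10, a chemokine, had 4028 counts in French bulldog 6 and 141 in French bulldog 11, and IDO1, an enzyme of tryptophan breakdown, had 1934 counts and 1 count. In the comparison group these genes had at most 15 and 3 counts. The 14 listed targets summed to 4413 CPM in French bulldog 6, 1005 CPM in French bulldog 11 and 233 to 522 CPM elsewhere.

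Some lists of cell type markers moved with the score, and their part in these results was not tested. Across 18 libraries the score correlated with that of the macrophage and microglia list at r = 0.77 (rho = 0.80) and with the IFN-gamma target list at r = 0.86 (rho = 0.78). Without the 2 libraries farthest from the median of the marker score r was 0.74 and 0.80, and over the 16 libraries without French bulldogs 6 and 11 it was 0.70 and 0.80. The endothelial list had r = 0.34 over 18 libraries, 0.29 without the 2 farthest, 0.64 without French bulldog 6 and 0.77 without both, and French bulldogs 2 and 8 had the lowest endothelial scores (-1.29 and -1.34). For the oligodendrocyte lineage r was -0.61 over 18 libraries, -0.74 without the 2 farthest, -0.44 without French bulldog 6 and -0.070 without French bulldogs 6 and 11. For proliferation genes r was -0.0080 over 18 libraries, -0.45 without the 2 farthest, -0.34 without French bulldog 6 and -0.24 without both. Other cell type lists kept no like value, since r over 18 libraries and over the 16 was 0.55 and 0.043 for T and NK cells, 0.22 and -0.24 for B and plasma cells, 0.13 and 0.027 for neutrophils, -0.52 and 0.011 for neurons and -0.32 and 0.50 for astrocytes. Over the same libraries r was 0.78 and 0.72 for the 2 interferon receptors. It was 0.78 and 0.57 for 9 sensing genes, and 0.74 and 0.43 for 7 JAK-STAT genes and inhibitors. The points share library and depth, and no p-value is given.

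**Figure D5:**
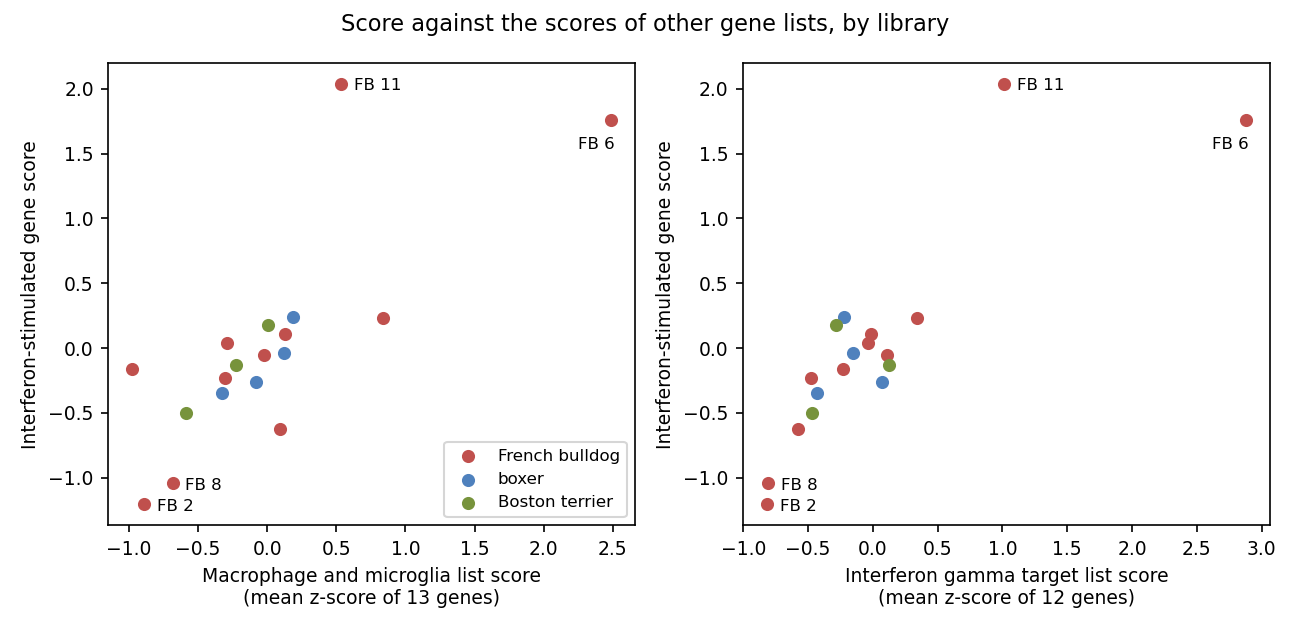
Interferon-stimulated gene score (vertical axes, mean z-score) against the score of 13 macrophage and microglia markers (left) and of 12 IFN-gamma targets (right) for each library, colored by breed. French bulldog 11 has a macrophage score of 0.537 beside an interferon-stimulated gene score of 2.04, while French bulldog 6 has 2.49 beside 1.76.

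The macrophage and microglia list was itself uneven between the high libraries. All 13 markers were detected in both. CD163, a scavenger receptor of macrophages, had 27819 counts in French bulldog 6 and 300 in French bulldog 11, whereas CX3CR1 and P2RY12, genes of resident microglia, had 24 and 66 counts in French bulldog 6 and 388 and 89 in French bulldog 11. T and NK cell transcripts, the usual source of IFN-gamma, summed over 12 listed genes to 180.7 CPM in French bulldog 6, 16.7 CPM in French bulldog 11 and 3.35 to 47.5 CPM elsewhere, with a median of 9.14 CPM. CD3D, CD8A, GZMB and PRF1 had 0 counts in French bulldog 11, as in 11 to 15 of the 18 libraries, while CD2 had 6.05 CPM there against a median of 2.04 CPM in the other 16. Of 13 macrophage markers tested between the groups, 7 were higher in French bulldogs at an unadjusted p-value under 0.05 (7.02% of all genes) and none after adjustment (CD163 had a log2 fold change of 4.94, adjusted p = 0.433), and without French bulldogs 6 and 11 there were 0 (6.78% of all genes).

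The comparison group pools breeds, so boxers were also compared with Boston terriers in a fit with 3 breeds. With edgeR 0 of the 28 genes passed at an adjusted p-value of 0.05 (0% of all genes), and 0 passed without adjustment (1.91% of all genes). A fit of the 7 comparison libraries alone gave 3 of 27 at an unadjusted p-value under 0.05 (6.23% of all genes), DHX58, IRF1 and TRIM25, and none after adjustment. In the fit with 3 breeds the median log2 fold change was -0.0056, from -0.78 for RSAD2 to 0.85 for DHX58. The mean score was -0.101 ± 0.261 (SD, n = 4) in boxers and -0.152 ± 0.338 (SD, n = 3) in Boston terriers.

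Finally, genes outside the list were ranked by how closely they followed the score across the 17 libraries without French bulldog 6. Of 11556 named genes, 4 had r above 0.9: PARP12 (0.93), a further interferon-inducible transferase, PRELID2 (0.92), VMP1 (0.91), a membrane protein of autophagy, and ADAMTS1 (0.91), a secreted protease. The next 11 were VPS26C, COL1A1, CNN3, MNDA, NFKB2, LPXN, ANXA2, RRP1, CD44, B2M and ANXA1, with r from 0.87 to 0.90. PARP12 had 44.7 CPM in French bulldog 11, 50.2 CPM in French bulldog 6 and 3.46 to 16.1 CPM elsewhere. ADAMTS1 had 100.3 CPM in French bulldog 11, 10.3 CPM in French bulldog 6 and 16.5 to 39.5 CPM elsewhere, and its r across all 18 libraries was 0.34. Over the 16 libraries without both high dogs, r of the 15 genes lay between 0.58 and 0.88.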

How the data were processed

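FFPE tissue of 18 HGO was sequenced with a stranded ribodepletion kit. Per the labels and the methods, the authors trimmed reads with Trimmomatic 0.33, mapped them with HISAT2 2.1.0 to canFam6 and counted them per gene with featureCounts. Strand and multi-mapping settings are not given in the sources used here. The deposited counts were raw, and every column was matched to a sample by its label.

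Groups were compared with edgeR 4.0.16 in R 4.3.3 (quasi-likelihood test with TMM, filterByExpr and robust estimation, breed group as the single factor). p-values are two-sided, were adjusted by Benjamini-Hochberg over all genes kept and were read at 0.05. An SE is the absolute log2 fold change over the root of the F statistic. log2 CPM used a prior count of 2. DESeq2 1.42.0 (Wald test, used in the study) and limma-voom (limma 3.58.1) were alternatives, beside other normalizations, filters, comparison groups, a block for the dog number and each dog left out. The fits were first tested on simulated counts. Figures were drawn with matplotlib 3.10.9.

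Every listed gene is named. Full statistics are given for the 10 smallest unadjusted p-values and for genes with an extreme single dog. From the other pathway lists, genes under an unadjusted p-value of 0.05, the ligands and the receptors are named, with the 15 genes nearest to the score. CXCL10, IDO1, CD163, CX3CR1, P2RY12, CD2, IRF5 and the markers at 0 were chosen after their values were seen. The genes and lists were chosen with earlier results of these data known.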

Additional observations from a re-analysis of the deposited data

Results flagged for a closer look

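In 1 of 29 groups of 7 comparison libraries, 1 dog lay far from the others by Dixon's test. For IFIT1, Boston terrier comparison 6 had 3 counts and a log2 CPM of -1.19, and its gap to the next library (0.93) was 0.581 of the range of the group, above the 95% critical value for a group of that size. Chance flags about 1 in 20 groups.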

How the results depend on the processing

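No gene of the list had an adjusted p-value under 0.05 under any setting tried, in either comparison. All genes with an adjusted p-value under 0.05 numbered 1 with edgeR, 58 with DESeq2, 2 with limma-voom, 2 with upper-quartile scaling, 5 without French bulldogs 6 and 11, 5 in the 14 libraries numbered 1 to 7 and 0 with the replicate block on those numbers. They numbered 0 with at least 10 counts in every dog, with French bulldogs 2 and 8 summed, against boxers alone and against either library series, and 0 to 7 with each dog left out. The numbers do not pair dogs (r from -0.502 to 0.205), so the block shares only a number. The fits without French bulldogs 6 and 11 and on the 14 libraries without a block were chosen after seeing the data.

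Genes of the list higher at an unadjusted p-value under 0.05 numbered 5 in the main test, 0 with limma-voom, 2 with at least 10 counts in every dog, 8 with French bulldogs 2 and 8 summed, 1 against boxers, 0 against Boston terriers, 0 against either series, 0 with the block, 0 without French bulldogs 6 and 11 and 1 to 8 with each dog left out. In these fits 1.59% (Boston terriers) to 8.89% (without French bulldog 9) of all genes were higher. Genes lower numbered 1 with DESeq2 (3.21% of all genes) and 3 without French bulldogs 6 and 11 (4.48%). Between boxers and Boston terriers 3 genes of the list passed in a fit of the 7 comparison libraries alone (6.23% of all genes). The median log2 fold change was 0.59 with DESeq2, 0.30 with limma-voom, 0.23 with the block and 0.41 to 1.12 with each dog left out, and the difference in score was -0.011 to 0.335.

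Log2 fold changes changed sign as follows, and the cause was not tested. With DESeq2 RSAD2 was -0.20, OAS3 -0.34, IFIT1 -0.51, IFI6 0.0067, ISG15 -0.14 and IFIT3 -0.79. With limma-voom OAS3 was -0.17, IFI44 -0.074, OAS1 -0.37 and IFIT3 -0.27. IFI6 was 0.0094 with DESeq2's size factors, 0.014 without a filter and 0.090 with French bulldogs 2 and 8 summed. Against Boston terriers OAS3 was -0.079 and IFI6 0.24. Against series 18 to 21 EIF2AK2 was -0.029, and against series 1 to 3 OAS3 was -0.14, IFI6 0.28 and OAS1 -0.0085. With the block RSAD2 was -0.038, OAS3 -0.23, IFIT1 -0.21, OAS1 -0.056 and IFIT3 -0.54, and in the same libraries without it RSAD2 was -0.14, OAS3 -0.22, ISG15 -0.057 and OAS1 -0.00139. Without French bulldogs 6 and 11 DDX58 was -0.20, RSAD2 -0.22, OAS3 -0.46, IFIT2 -0.15, IFIT1 -0.59, MX2 -0.10, DTX3L -0.21, PARP14 -0.10, IFI6 0.15, IFI35 -0.17, DHX58 -0.18, ISG15 -0.21, IFI44 -0.15, OAS2 -0.14, OAS1 -0.37, BST2 -0.11 and IFIT3 -0.90. With each dog left out, RSAD2 ran from -0.22 to 1.57, OAS3 from -0.37 to 0.22, IFI6 from -0.49 to 0.36, ISG15 from -0.16 to 2.15 and OAS1 from -0.33 to 0.23. Depth limits ZBP1, ISG15, OASL, IFIT1, IFIT2, IFI6 and PARP9, which had at most 5 counts in at least 1 dog.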
